A study of Rattus norvegicus with 6 samples.

Results

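The 8 cathepsin genes Ctsb, Ctsl, Ctss, Ctsk, Ctsd, Ctsz, Ctsc and Ctsh were followed through all cells of the digested rat lung. They were chosen by name from the 16383 genes of the table, and the 5 other cathepsin genes of the table (Ctsa, Ctse, Ctsf, Ctsw and Ctsll3) served only for comparison. All rats were young adult Sprague Dawley rats. In 3 BLM-treated rats bleomycin (BLM), an antitumour antibiotic that injures the lung and leaves scar tissue, was given once into the trachea at 5 mg/kg, and in 3 control rats the same volume of saline was given. A small piece of lung was digested on day 28, and single cells were captured with the BD Rhapsody system, in which each captured mRNA carries a unique molecular identifier (UMI).

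Cathepsins are proteases of the lysosome, the compartment in which a cell takes apart what it has swallowed and its own worn parts. Ctsd is an aspartic protease and the other 7 members are cysteine proteases. Ctsb and Ctsl cut a broad range of proteins, Ctsk cuts fibrillar collagen and is best known from osteoclasts, Ctss trims the invariant chain on its way to MHC class II, and Ctsz, Ctsc and Ctsh remove residues from the ends of chains, Ctsc thereby switching on the serine proteases of granules and Ctsh taking part in the processing of surfactant proteins. Alveolar macrophages, which clear surfactant and dust from the airspace, and interstitial macrophages, which lie in the tissue, are the lung cells best known for a high lysosomal content.

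Of 25547 cells in the 6 libraries, 10538 came from control and 15009 from BLM-treated lungs. The libraries held between 3860028 and 16598959 UMIs each, with a median of 1066 to 1840 UMIs per cell. Any pair of libraries shared between 11 and 35 cell barcodes. Cells were clustered without the cathepsin genes, and clusters were named from marker genes, so that every class below is a cell that is like the named type, and a cluster without a clear name goes by its leading gene. A level is given in CPM, the gene's UMIs as a part of 1000000 UMIs of the class in a rat, always for control replicates 1 to 3 and then for BLM-treated replicates 1 to 3. Rats with fewer than 10 cells of a class were left out of it. Between rats, UMIs were summed per rat and class and tested by the quasi-likelihood method of edgeR. Adjusted p-values are those of Benjamini and Hochberg over every gene tested in that class, and a gene was called at an adjusted p under 0.05. A log2 fold change above 0 means a higher level in BLM-treated rats. Orders of levels cover the classes reported here that were found in at least 2 rats of a group.

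Each gene had its own distribution over the classes, and levels were compared within a gene only. In control lungs Ctsd was highest in alveolar macrophages, at 3457, 3169 and 4097 CPM. Proliferating cells followed with a mean of 2489 CPM, without overlap. Control interstitial macrophages held 159, 134 and 383 CPM of Ctsd, and dendritic cells 65.1, 59.4 and 50.5 CPM. Ctsd therefore separated the 2 macrophage classes of the control lung by a wide margin. Ctsb did not separate them, since it stood at 2197, 1631 and 2551 CPM in control alveolar and 2245, 2263 and 3476 CPM in control interstitial macrophages. The lowest mean of Ctsb in control rats was that of NK cells, 186 CPM. Ctss was highest in control interstitial macrophages, at 2683, 1781 and 2393 CPM, and its levels did not overlap with those of alveolar macrophages, 1343, 787 and 1359 CPM. Classical monocytes, plasmacytoid dendritic cells and dendritic cells followed with means of 1126, 1090 and 941 CPM, which overlapped with alveolar macrophages and among themselves. Ctss was not detected in control tuft cells, where 0 of 113701 UMIs allow up to 26.4 CPM at the limit of 3 UMIs over the group.

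Ctsz, an exopeptidase, was highest in control plasmacytoid dendritic cells, at 864, 887 and 847 CPM, without overlap with alveolar macrophages at 640, 766 and 610 CPM. Ctsl too was highest in control plasmacytoid dendritic cells, at 1694, 1464 and 1512 CPM. Endothelial cells came next with 645, 1424 and 1142 CPM, followed by mesothelial cells with 764, 951 and 729 CPM, and these did not differ beyond their spread. Control alveolar macrophages were among the cells low in Ctsl, at 52.5, 28.5 and 56.8 CPM.

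Ctsh was highest in the epithelium of the alveolus. Control alveolar type 2 cells, which make surfactant, held 1762, 1683 and 2217 CPM of Ctsh, and the 2 control rats with enough alveolar type 1 cells held 1405 and 2003 CPM. These 2 classes overlapped. Fibroblasts of the 2 control rats that could be used held 1080 and 1113 CPM of Ctsh, below both. Mesothelial cells were lowest at 11.4, 13.2 and 20.8 CPM.

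Ctsc was highest in control alveolar type 2 cells, at 555, 561 and 712 CPM. Control neutrophils, whose granule proteases Ctsc activates, overlapped with them at 625, 524 and 504 CPM. Control fibroblasts were lowest with a mean of 20.9 CPM. Ctsk was scarce in most control classes. It was highest in control mesothelial cells at 96.9, 211 and 146 CPM and in fibroblasts at 75.3 and 166 CPM, which overlapped. Control interstitial macrophages held 7.56, 0 and 16.3 CPM of Ctsk, and of control dendritic cells 0 of 232309 UMIs were Ctsk, which allows up to 12.9 CPM. These floors and intervals cover counting error only.

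In BLM-treated lungs the order was different for several genes. Interstitial macrophages were then the highest class for Ctsb, Ctsc, Ctsk and Ctss, with means of 7663 ± 1857, 529 ± 69.2, 1111 ± 339 and 2861 ± 206 CPM (SD, n = 3), each without overlap with the next class, which was alveolar macrophages for Ctsb and Ctss, neutrophils for Ctsc and fibroblasts for Ctsk. For Ctsd, interstitial macrophages, proliferating cells and alveolar macrophages overlapped, with means of 4177 ± 619, 3990 ± 135 and 3790 ± 325 CPM. The interstitial class was made of clusters that differed in Ctsk, Ctsd, Ctsb and Ctsc, as given below, so its level is not that of each cluster. Ctsz did not separate plasmacytoid dendritic cells, 741 ± 113 CPM, from interstitial macrophages, 729 ± 63.9 CPM. Ctsl was highest in a small cluster led by Ccl21, 1752 ± 816 CPM, which overlapped with fibroblasts at 1288 ± 120 CPM, and Ctsh in alveolar type 2 cells, 1891 ± 268 CPM (SD, n = 2), without overlap with the next class.

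**Figure D1:**
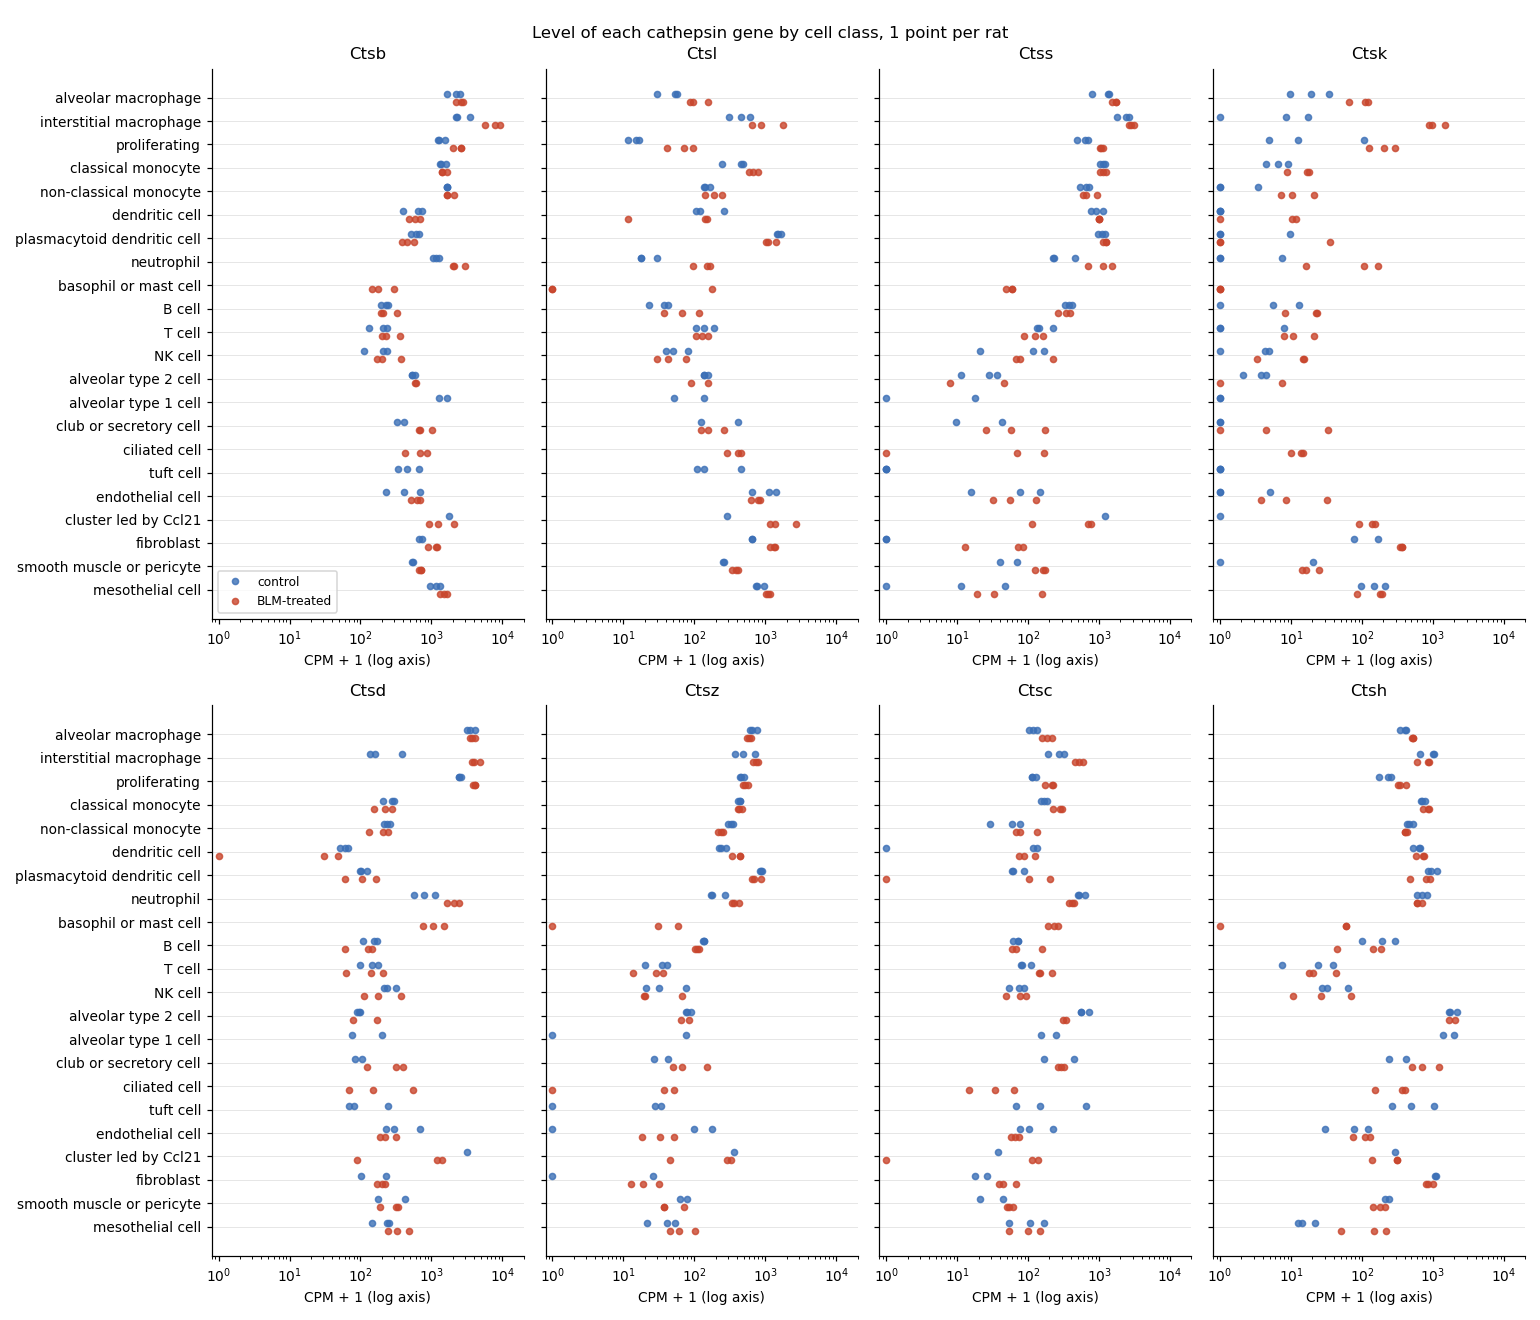
Level of each cathepsin gene in each cell class, as CPM + 1 on a log axis, with 1 point for each rat that had at least 10 cells of the class (blue, control; red, BLM-treated). Ctsk and Ctsd of the 3 BLM-treated rats stand far to the right of the control rats in interstitial macrophages. This class held clusters in different proportions in the groups. Ctsh is highest in alveolar type 2 cells of both groups.

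Over all cells of a rat, 2 of the 8 genes rose in BLM-treated lungs and none fell, beside 17.4% of the 13346 genes tested that were called in either direction. Ctsk stood at 22.2, 15.8 and 14.3 CPM in control and at 262, 282 and 160 CPM in BLM-treated rats, without overlap, a log2 fold change of 3.71 ± 0.29 (SE, n = 3 and 3 rats, edgeR adjusted p = 0.000845). Ctsl stood at 151, 189 and 135 CPM in control and at 401, 775 and 488 CPM in BLM-treated rats, also without overlap, a log2 fold change of 1.78 ± 0.26 (SE, edgeR adjusted p = 0.00434). The other 6 did not pass: the log2 fold change was 0.58 for Ctsb, 0.27 for Ctss, 0.02 for Ctsc, -0.17 for Ctsd, -0.32 for Ctsh and -0.45 for Ctsz (edgeR adjusted p between 0.0661 and 0.951). The median over the 8 was 0.14, against -0.0054 over all genes tested. In a sum over all cells, more cells of a type and more RNA per cell cannot be told apart.

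The classes that carried these UMIs changed with the make-up of the sample. Interstitial macrophages were 1.63% to 2.14% of the cells of control rats and 6.54% to 12.2% of those of BLM-treated rats, fibroblasts 0.089% to 0.631% and 4.43% to 9.50%, alveolar macrophages 30.7% to 38.0% and 14.9% to 16.3%, and alveolar type 2 cells 6.11% to 8.33% and 0.191% to 1.32%. Alveolar macrophages held 58.8% ± 32.5 (SD, n = 3) of all Ctsk UMIs of a control rat. In BLM-treated rats 60.0% ± 9.4 (SD, n = 3) lay in interstitial macrophages, 15.7% ± 4.4 in fibroblasts and 12.2% ± 1.7 in alveolar macrophages. Ctsl had no dominant class in control rats, where plasmacytoid dendritic cells held 16.7% ± 7.4 and alveolar macrophages 16.4% ± 9.7 of its UMIs. In BLM-treated rats interstitial macrophages held 26.5% ± 15.1, fibroblasts 23.6% ± 4.9 and mesothelial cells 15% ± 14.5 of them.

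For Ctsd, alveolar macrophages held 88.3% of the UMIs on average in control and 58.4% in BLM-treated rats, where interstitial macrophages held 27.8%. For Ctsb the alveolar macrophages held 70.0% in control and 32.7% in BLM-treated rats, and interstitial macrophages 42.2% in BLM-treated rats. Ctsc and Ctsh showed the alveolar type 2 cells most clearly, with 38.6% and 37.2% of the UMIs in control rats.

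**Figure D2:**
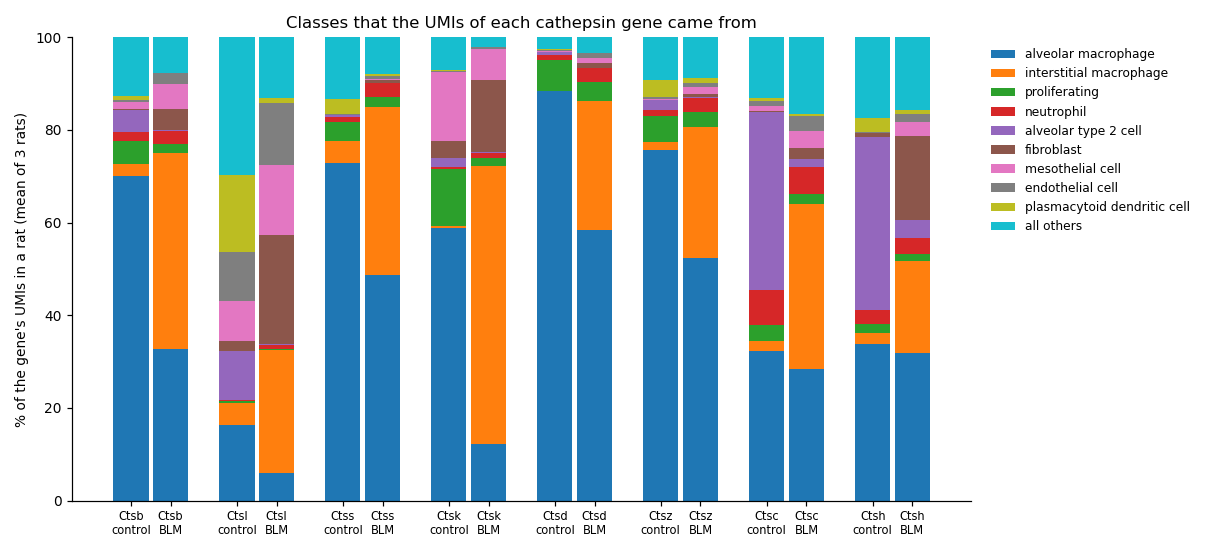
Share of the UMIs of each cathepsin gene that came from each class, as the mean over 3 rats in percent, for control and BLM-treated (BLM) lungs. The orange part, interstitial macrophages, is the largest for Ctsk, Ctsb, Ctsl and Ctsc in BLM-treated lungs, and the purple part, alveolar type 2 cells, is large for Ctsc and Ctsh in control lungs only.

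Among 17 classes tested, 20 of 114 tests of a member passed in 5 classes, 19 higher and 1 lower in BLM-treated rats. Ctsl rose in 4 classes, Ctsb, Ctsd, Ctsc and Ctsk in 3 each, Ctss in 2 and Ctsh in 1, and Ctsc fell in 1. Ctsz passed in 0 of 15 classes. Ctsk passed the filter on low counts in 5 classes only. Of the 20 calls, 4 were of genes that passed this filter through the BLM-treated rats and would have failed it on the control rats alone: Ctsk in interstitial macrophages, Ctsk and Ctsl in proliferating cells and Ctsl in neutrophils. Such a gene had to differ to be tested, so these 4 are given as levels and folds without the p of edgeR. The other 16 calls passed the filter on the control rats alone. This was checked for the members only and not for the other genes named below.

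In interstitial macrophages 5 of the 8 genes rose and 0 fell in BLM-treated rats, beside 17.5% of the 5988 genes tested that were called. Ctsk among the 5 passed the filter on low counts through the BLM-treated rats only. Ctsk, the collagen-cutting member, counted 1, 0 and 2 UMIs in the 3 control rats and 1423, 2968 and 693 UMIs in the BLM-treated rats, or 1498, 965 and 869 CPM. The groups did not overlap, and the fitted log2 fold change was 7.04 ± 0.48 (SE). With 3 control UMIs in all, the ratio of the summed levels was 116 with an exact 95% counting interval of 39.6 to 562. Without control replicate 3, which held 2 of the 3 UMIs, the fitted value was 8.03.

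Ctsd, the aspartic member, rose from 159, 134 and 383 CPM to 3935, 3715 and 4880 CPM, a log2 fold change of 4.28 ± 0.34 (SE, edgeR adjusted p = 9.68e-07). Every BLM-treated rat lay above every control rat, and the BLM-treated levels overlapped with those of alveolar macrophages of the same rats, 3522, 3698 and 4151 CPM. Control replicate 3 was the highest of its group, and without it the log2 fold change was 5.03. Ctsb rose from 2245, 2263 and 3476 CPM to 7974, 9345 and 5670 CPM, a log2 fold change of 1.65 ± 0.28 (SE, edgeR adjusted p = 0.000804), and its BLM-treated levels lay above those of every other class in any rat with at least 10 cells of it. Ctsc rose from 189, 268 and 318 CPM to 460, 529 and 598 CPM, without overlap, a log2 fold change of 1.16 ± 0.23 (SE, edgeR adjusted p = 0.00253). Ctsl rose from 612, 308 and 456 CPM to 868, 1757 and 641 CPM, a log2 fold change of 1.35 ± 0.34 (SE, edgeR adjusted p = 0.0114). BLM-treated replicate 2 stood above the others, and without it Ctsl was 0.79 (edgeR adjusted p = 0.0522), and without control replicate 2 it was 1.19 (edgeR adjusted p = 0.0624).

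Ctss, Ctsz and Ctsh did not pass in interstitial macrophages. Ctss stood at 2683, 1781 and 2393 CPM in control and at 2846, 2663 and 3074 CPM in BLM-treated rats, a log2 fold change of 0.44 ± 0.23 (SE, edgeR adjusted p = 0.201), with overlap. Ctsz had a log2 fold change of 0.58 ± 0.24 (SE, edgeR adjusted p = 0.107) and Ctsh of -0.11 ± 0.23 (SE, edgeR adjusted p = 0.799). The median over the 8 genes was 1.26, against 0.014 over all genes tested.

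The class was made of 2 clusters whose shares differed between the groups, and the levels of several members differed between the clusters. The cluster led by Spp1, a secreted matrix protein of macrophages, held 958 cells, 13 of control and 945 of BLM-treated rats. Its next leading genes were Apoe, Ccl24 and Pf4. The marker list for interstitial macrophages used here held Spp1, Trem2 and Gpnmb. The study annotated its macrophages high in Spp1 and Trem2 as alveolar macrophages, and proposed that they may correspond to scar-associated macrophages. It named Ctsl among the genes high in them, and plotted Ctsl, Ctsb and Ctss as scar-associated genes over its own macrophage clusters. Whether the Spp1-led cluster holds the same cells was not tested. The cluster led by C1qc, a complement subunit, held 665 cells, 181 of control and 484 of BLM-treated rats. In BLM-treated rats Ctsk stood at 1756, 1135 and 1242 CPM in the Spp1-led cluster and at 0, 10.8 and 0 CPM in the C1qc-led cluster. Ctsd stood at 4595, 4330 and 6823 CPM in the first and at 114, 258 and 351 CPM in the second. Ctsb stood at 8857, 10370 and 6658 CPM in the first and at 2865, 3595 and 3367 CPM in the second. Ctss overlapped between them, at 2878, 2654 and 3015 against 2658, 2713 and 3213 CPM, and Ctsh was lower in the Spp1-led cluster, at 801, 543 and 778 against 1093, 904 and 1082 CPM. Ctsz was higher in the Spp1-led cluster, at 848, 705 and 812 against 472, 437 and 539 CPM, and so was Ctsc, at 504, 563 and 654 against 207, 336 and 468 CPM. Ctsl overlapped, at 912, 1920 and 613 against 614, 839 and 706 CPM. These cluster values are a description, because the clusters were made from the same cells.

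Within the C1qc-led cluster alone, control and BLM-treated rats were compared. By edgeR 0 of 7 members tested were called, beside 1.12% of the 2680 genes tested. At an unadjusted p under 0.05 there were 3, without a share of all genes. DESeq2 was not run on this cluster. There the log2 fold changes were 0.87 for Ctsd, 0.61 for Ctsl, 0.56 for Ctsb, 0.45 for Ctsc, 0.30 for Ctss, 0.16 for Ctsh and -0.14 for Ctsz. Ctsk counted 1 UMI in the control and 5 in the BLM-treated rats and was not tested. Only control replicate 3 had at least 10 cells in the Spp1-led cluster, 10 of them, with 113 CPM of Ctsk and 1858 CPM of Ctsd, both below the BLM-treated rats of that cluster, and 10076 CPM of Ctsb, within their range, so that no comparison of the groups within that cluster could be made. The proportion of the 2 clusters and the level within a cell cannot be told apart in the values of the whole class.

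**Figure D3:**
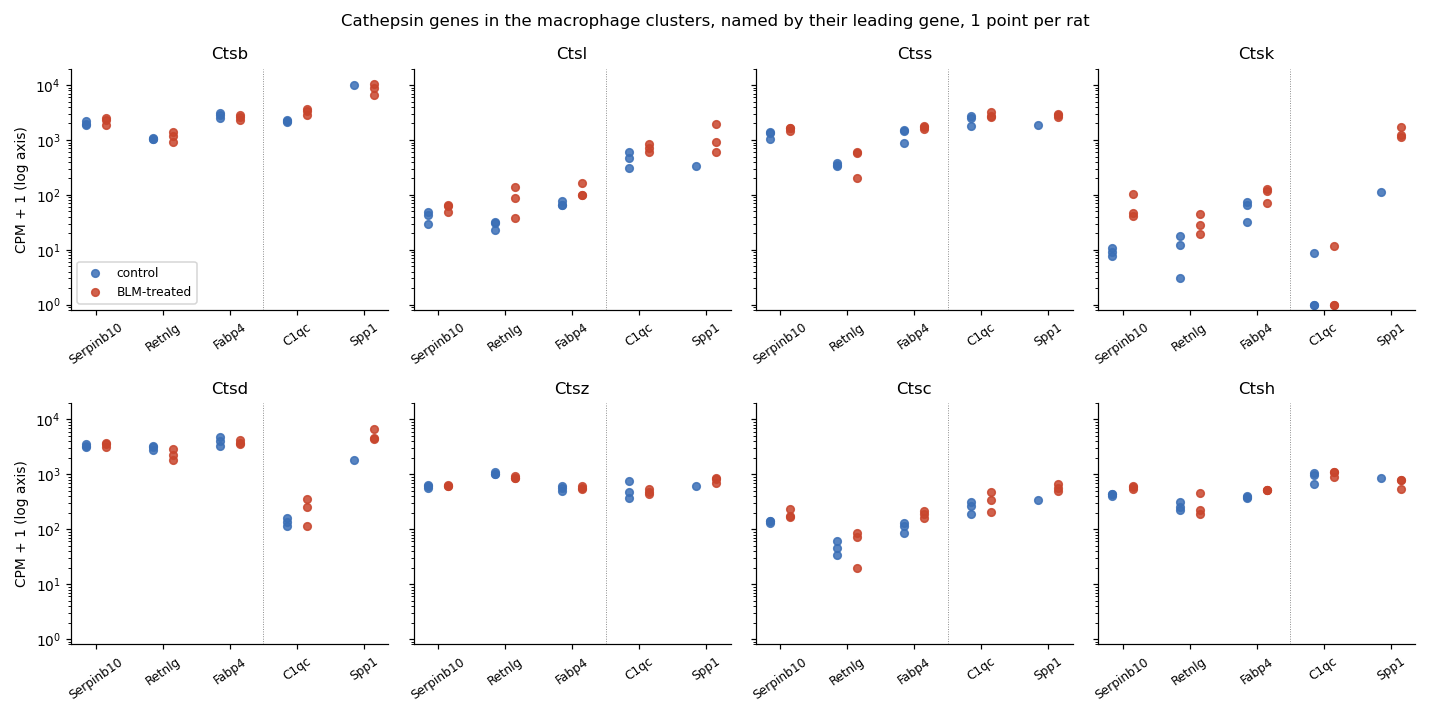
Level of each cathepsin gene, as CPM + 1 on a log axis, in the clusters of alveolar macrophages (Serpinb10, Retnlg and Fabp4, left of the dotted line) and of interstitial macrophages (C1qc and Spp1, right of it), with 1 point per rat with at least 10 cells. Ctsk and Ctsd are low in the C1qc-led cluster of both groups and high in the Spp1-led cluster of BLM-treated rats.

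The share of cells with at least 1 UMI of Ctsk is read against B cells, since free RNA can give a UMI to any cell. After each cell was thinned to 500 UMIs, with 21 control and 114 BLM-treated cells left out as too shallow, Ctsk was found in 1.07% ± 0.92 (SD, n = 3) of control and 19.2% ± 5.3 of BLM-treated interstitial macrophages. Unthinned shares were 1.41% and 39.1%, at median depths of 1714 and 2936 UMIs per cell. B cells, which should lack the gene, showed 0.352% in control and 0.859% in BLM-treated rats after thinning and 0.362% and 1.14% before, at median depths of 574 and 598 UMIs. The share in control interstitial macrophages differed from that of control B cells by less than its SD.

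The promoters of 3 members with contrasting patterns are shown because Ctsd and Ctsk moved together in interstitial macrophages and Ctss did not. Each is the RefSeq sequence of the 250 bases before the gene's start in build GRCr8, given 5′ to 3′ on the strand of the gene, with matches to the searched motifs in capitals. RefSeq promoters were at hand for 7 of the 8 members, all but Ctsb.
Ctsd, chr1:206968822-206969071, minus strand: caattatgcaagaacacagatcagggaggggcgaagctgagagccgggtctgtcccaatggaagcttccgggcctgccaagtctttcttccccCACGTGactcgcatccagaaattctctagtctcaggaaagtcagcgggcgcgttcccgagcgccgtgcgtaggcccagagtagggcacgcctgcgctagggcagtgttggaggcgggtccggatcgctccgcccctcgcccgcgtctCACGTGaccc
Ctsk, chr2:185747298-185747547, plus strand: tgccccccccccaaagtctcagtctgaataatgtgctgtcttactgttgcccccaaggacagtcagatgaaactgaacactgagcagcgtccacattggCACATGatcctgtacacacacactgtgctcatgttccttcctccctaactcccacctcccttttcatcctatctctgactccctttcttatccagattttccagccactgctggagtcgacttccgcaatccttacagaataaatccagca
Ctss, chr2:185775146-185775395, plus strand: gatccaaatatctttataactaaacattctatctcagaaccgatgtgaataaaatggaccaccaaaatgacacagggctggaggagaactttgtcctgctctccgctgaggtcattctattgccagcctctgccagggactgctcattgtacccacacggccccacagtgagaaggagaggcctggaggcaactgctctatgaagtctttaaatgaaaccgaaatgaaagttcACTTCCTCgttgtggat
The E-box CACGTG, the core of the element bound by TFEB and related factors at lysosomal genes, occurred 2 times in the Ctsd promoter, at 157 to 152 and at 10 to 5 bases before the start, and in no other member, while 5.59% of 33469 rat promoters of this length held it. The M-box core CATGTG, searched on both strands, occurred 1 time, in the Ctsk promoter as CACATG at 151 to 146 bases before the start, against 12.1% of all promoters. The PU.1 motif GAGGAAGT occurred as ACTTCCTC in the Ctss promoter at 17 to 10 bases and in the Ctsc promoter at 248 to 241 bases before the start, against 2.04% of all promoters. The AP-1 motif TGANTCA was in none of the 7, against 6.34% of all. A match describes the letters only.

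Genes that work with the cathepsins were followed as lists in interstitial macrophages. Of all 5988 genes tested in this class 9.10% rose and 8.43% fell. Of 22 other lysosomal hydrolases, enzymes that break down sugars, lipids and phosphate esters, 12 rose and 0 fell, with a median log2 fold change of 0.79. Gaa, which splits glycogen, rose by 2.70, Ppt1, which removes fatty acids from proteins, by 1.91 and Lipa, which splits cholesterol esters, by 1.79 on the log2 scale. The list for processing and sorting of cathepsins, called sorting genes below, also held lysosomal membrane proteins and transcription factors. Of its 14 genes 10 were tested, 7 rose and 0 fell, with a median of 1.22. These included Scarb2, a lysosomal membrane protein (2.06), the mannose 6-phosphate receptor Igf2r (1.79) and the sorting receptor Sort1 (1.76). Of 8 genes for MHC class II presentation 6 were tested and all 6 fell, with a median of -2.09, among them RT1.Bb at -2.16, RT1.Db1 at -2.13 and their activator Ciita at -2.13. The inhibitors of cysteine cathepsins went both ways, as Cstb rose by 1.24 and the secreted Cst3 fell by 1.13 on the log2 scale, of 3 tested. Of 3 other cathepsins tested 1 rose, Ctsf at 1.17. Of 12 macrophage genes tested 4 rose and 3 fell. The part that the 2 clusters of this class play in these counts was not tested.

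**Figure D4:**
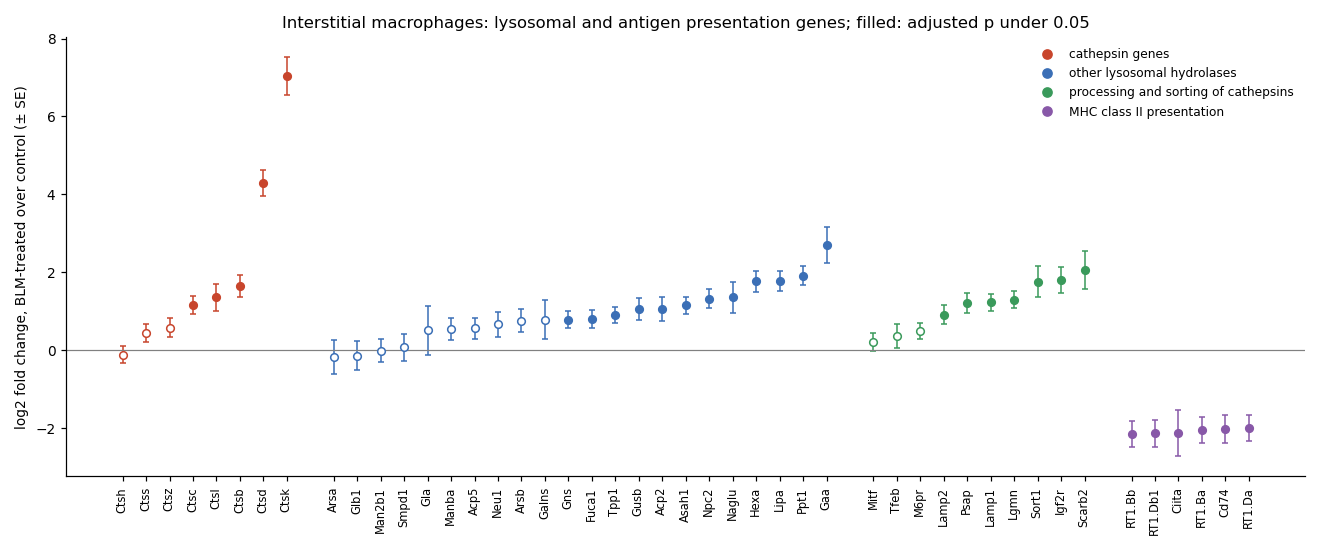
Log2 fold change of BLM-treated over control rats in interstitial macrophages (± SE, 3 rats per group) for the cathepsin genes and 3 lists of genes, each sorted by its change, with filled points at an edgeR adjusted p under 0.05. Ctsk and Ctsd lie highest, 12 hydrolases and 7 sorting genes are filled above 0, and all 6 MHC class II genes are filled near -2. Ctsk passed the filter on low counts through the BLM-treated rats only.

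In alveolar macrophages 3 of the 8 genes rose and 0 fell, beside 11.0% of the 9273 genes tested that were called. Ctsk stood at 32.9, 8.81 and 18.2 CPM in control and at 109, 122 and 64.1 CPM in BLM-treated rats, without overlap, a log2 fold change of 2.18 ± 0.36 (SE, edgeR adjusted p = 0.00389). Ctsl stood at 52.5, 28.5 and 56.8 CPM in control and at 94.1, 155 and 86.8 CPM in BLM-treated rats, without overlap, a log2 fold change of 1.20 ± 0.28 (SE, edgeR adjusted p = 0.0221). Ctsc stood at 115, 100 and 131 CPM in control and at 156, 183 and 215 CPM in BLM-treated rats, without overlap, a log2 fold change of 0.63 ± 0.15 (SE, edgeR adjusted p = 0.0268). The calls of Ctsl and Ctsc were lost without single rats. Without control replicate 1 the adjusted p was 0.0664 for Ctsl and 0.107 for Ctsc, without BLM-treated replicate 2 it was 0.0897 and 0.0953, and without BLM-treated replicate 3 it was 0.0893 for Ctsc, with log2 fold changes of 0.87 to 1.27 for Ctsl and of 0.56 to 0.62 for Ctsc.

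Ctsd did not pass at 3457, 3169 and 4097 against 3522, 3698 and 4151 CPM, a log2 fold change of 0.05 ± 0.15 (SE, edgeR adjusted p = 0.865), with overlap. Ctsb, Ctss, Ctsh and Ctsz had log2 fold changes of 0.22, 0.48, 0.39 and -0.22 and did not pass. The median over the 8 genes was 0.43, against -0.0061 over all genes tested.

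Alveolar macrophages too came from different clusters in the 2 groups. The cluster led by Serpinb10 held 1942 control and 329 BLM-treated cells, that led by Retnlg 997 and 214, and that led by Fabp4, a fatty acid carrier of mature alveolar macrophages, 854 and 1783. In the Fabp4-led cluster alone Ctsk was still higher in BLM-treated rats, at 71.8, 64.4 and 30.7 against 116, 125 and 70.1 CPM, with a log2 fold change of 1.05 and an edgeR adjusted p of 0.0256. Control replicate 1 then overlapped with BLM-treated replicate 3. Ctsl and Ctsc also passed there, at 0.71 and 0.57, so that 3 members were called beside 11.7% of the 8561 genes tested. Ctsb and Ctsd were at -0.17 and -0.11 in that cluster and did not pass. In the Serpinb10-led cluster Ctsk stood at 9.83, 6.76 and 8.10 against 39.5, 105 and 46.2 CPM. Of all genes tested in alveolar macrophages 6.54% rose and 4.48% fell. Of the lists, 0 of 22 hydrolases rose and 1 fell there, Lipa by 0.63 on the log2 scale. The counts that passed were 0 of 13 sorting genes tested, 0 of 5 MHC class II genes and 0 of 3 cystatins. Of 3 other cathepsins Ctse rose by 2.32.

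The difference in response between the 2 macrophage classes was tested directly, with the interaction of class and group and the rat as a block. The change of 5 members differed, beside 17.3% of the 9518 genes tested. The log2 fold change was larger in interstitial than in alveolar macrophages by 4.42 ± 0.25 for Ctsd (SE, edgeR adjusted p = 5.59e-19), by 1.56 ± 0.20 for Ctsb (edgeR adjusted p = 3.96e-08), by 0.95 for Ctsz (edgeR adjusted p = 0.000924) and by 0.69 for Ctsc (edgeR adjusted p = 0.0245). For Ctsl, Ctss and Ctsh it was 0.19, 0.09 and -0.37 and did not pass. The fitted value for Ctsk, the other of the 5, was 5.02 ± 0.53 (SE), 4.33 without control replicate 1 and 6.07 without control replicate 3, and is given without a p because it rests on 3 control UMIs in interstitial macrophages. The call of Ctsc was lost without control replicate 1, BLM-treated replicate 1 or BLM-treated replicate 2, at 0.52, 0.70 and 0.67 (edgeR adjusted p = 0.205, 0.0582 and 0.0595), and with DESeq2, at 0.62 (adjusted p = 0.104). Both classes hold the clusters named above in different proportions in the 2 groups, and the changes within single clusters are those given above.

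**Figure D5:**
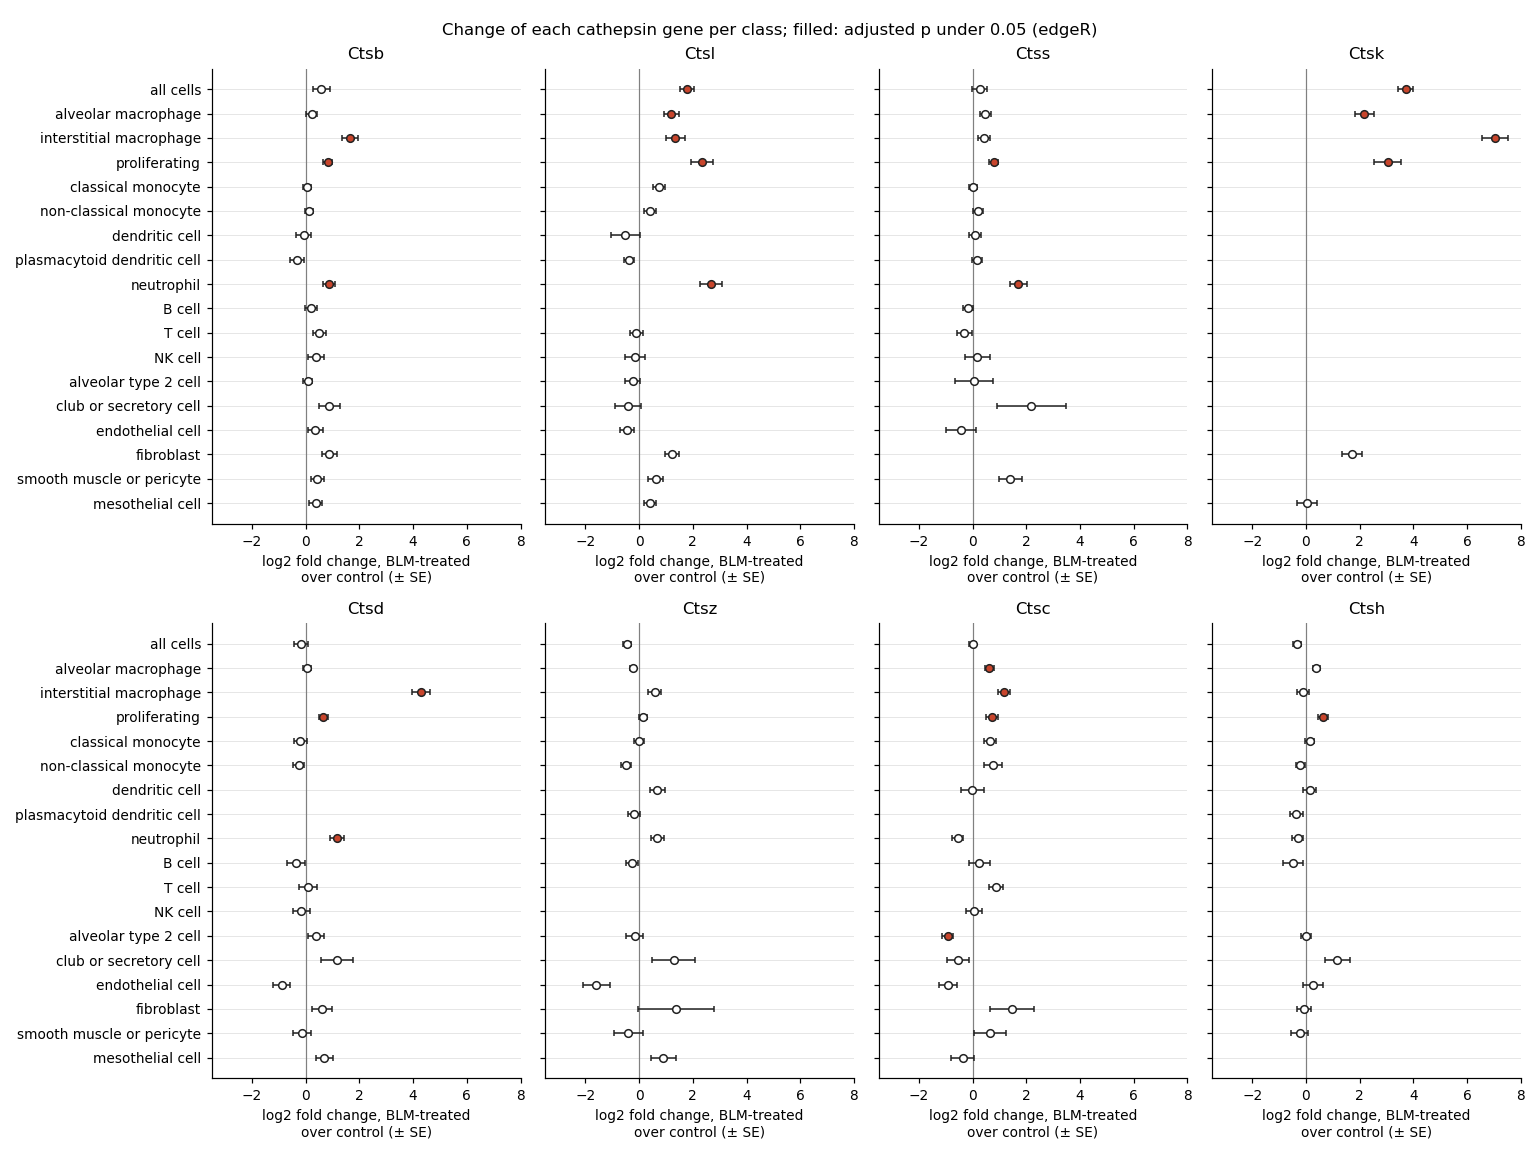
Log2 fold change of each cathepsin gene, BLM-treated over control rats, with its SE, over all cells and in each tested class, filled where the edgeR adjusted p is under 0.05. Filled points lie in interstitial and alveolar macrophages, proliferating cells and neutrophils and, for 1 gene, in alveolar type 2 cells. Some filled genes passed the filter on low counts through the BLM-treated rats only. These are Ctsk in interstitial macrophages, Ctsk and Ctsl in proliferating cells and Ctsl in neutrophils. Ctss of fibroblasts, with 0 control UMIs, is left out.

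Proliferating cells, a class set by cell cycle genes, showed 7 of the 8 genes higher, beside 6.08% called of the 4576 genes tested. Of these 7, Ctsk and Ctsl passed the filter on low counts through the BLM-treated rats only. The median was 0.75 over the members and 0.0017 over all genes tested. The class held 330 control and 151 BLM-treated cells. In control rats its Ctsd levels of 2427, 2425 and 2615 CPM lay between those of alveolar macrophages and neutrophils. Ctsl stood at 14.2, 10.5 and 15.5 CPM in control and at 70.6, 95.6 and 40.5 CPM in BLM-treated rats, without overlap, a log2 fold change of 2.34 ± 0.42 (SE), from 19 control and 52 BLM-treated UMIs in all. Ctsk stood at 11.4, 105 and 3.87 CPM in control and at 294, 124 and 202 CPM in BLM-treated rats, a log2 fold change of 3.04 ± 0.51 (SE). Control replicate 2 was close to the BLM-treated rats, and the value was 4.84 without it and 2.02 without control replicate 3, while DESeq2 gave 2.40 and did not call it.

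Ctsb rose by 0.81, Ctss by 0.79, Ctsd by 0.66, Ctsc by 0.71 and Ctsh by 0.64 on the log2 scale in proliferating cells, and Ctsz had 0.14 and did not pass. Without each rat in turn Ctsc lost its call every time, at 0.63 to 0.84 with adjusted p between 0.0697 and 0.17. Ctsh lost it in 5 of the 6 cases, all but control replicate 3, with adjusted p between 0.0731 and 0.16. At a clustering resolution of 2.0 only 2 members passed. Spp1 rose by 3.70 on the log2 scale in the same sums and Lyz2 and Ptprc fell, 1 up and 2 down of 9 macrophage genes tested. The summed level of all 13 ranged from 44933 to 54619 CPM in control and from 22632 to 34104 CPM in BLM-treated rats. C1qa, C1qb and Marco were at 0 in the control rats. The sum is not particular to macrophages, as its control mean was 76590 CPM in alveolar type 2 cells and 66196 CPM in alveolar macrophages. The part of these 13 genes in the result was not tested. On the log2 scale Ctsa, a protective protein of lysosomal enzymes, rose by 0.80, Tpp1, a peptidase, by 0.68 and Lgmn, the protease that processes cathepsins, by 0.88. Cst3 rose by 1.29 and Cd74, the invariant chain, by 3.08. Each was the 1 member of its list that passed, beside 3.50% of all genes tested that rose. Whether these genes and Spp1 pass the filter on the control rats alone was not checked.

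In neutrophils 4 of 7 members tested rose and 0 fell, beside 19.8% of the 3338 genes tested that were called. Ctsl among the 4 passed the filter on low counts through the BLM-treated rats only. The median was 0.87 over the 7 and -0.0016 over all genes tested. Ctsl counted 2, 4 and 5 UMIs in control and 35, 83 and 19 UMIs in BLM-treated rats, or 16.9, 28.7 and 16.5 against 148, 168 and 95.6 CPM, a log2 fold change of 2.67 ± 0.41 (SE). Ctss stood at 228, 222 and 458 CPM in control and at 1119, 1538 and 695 CPM in BLM-treated rats, a log2 fold change of 1.70 ± 0.32 (SE, edgeR adjusted p = 0.00405). Ctsd stood at 785, 567 and 1133 CPM in control and at 1655, 2460 and 2079 CPM in BLM-treated rats, a log2 fold change of 1.16 ± 0.25 (SE, edgeR adjusted p = 0.00733). None of these 3 overlapped between the groups. Control neutrophils held 118409, 139443 and 303681 UMIs in 167, 218 and 332 cells. BLM-treated neutrophils held 236824, 493989 and 198645 UMIs in 172, 363 and 207 cells. Median depths were 622 and 616 UMIs per cell. The part of cells with many UMIs in these changes was not tested.

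Ctsb stood at 1157, 1061 and 1261 CPM in control and at 2010, 2988 and 2049 CPM in BLM-treated neutrophils, a log2 fold change of 0.87 ± 0.21 (SE, edgeR adjusted p = 0.013), without overlap. Its call was lost without control replicate 1, at 0.84 (edgeR adjusted p = 0.0582), and without BLM-treated replicate 2, at 0.68 (edgeR adjusted p = 0.0827). Ctsc, the activator of neutrophil granule proteases, had -0.55 ± 0.21 (SE, edgeR adjusted p = 0.0792) and did not pass. Ctsk failed the filter with 0, 0 and 2 UMIs in control and 40, 52 and 3 UMIs in BLM-treated neutrophils, a ratio of summed levels of 28.7 with an exact 95% counting interval of 7.73 to 240.

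Genes of macrophages moved in the same neutrophil sums. Of 9 tested, Mrc1 rose by 1.64 and Cd68 by 1.53 on the log2 scale, and Ptprc and Tyrobp, which neutrophils share, fell by 0.69 and 0.58. The summed level of the 13 macrophage genes ranged from 33031 to 44560 CPM in control and from 28896 to 35714 CPM in BLM-treated rats. In control rats this sum averaged 37561 CPM in neutrophils and 27792 CPM in interstitial macrophages, so it is not particular to macrophages. Marco was at 0 in both groups and Spp1 at 0 in the control rats. Their part in the result was not tested. Of all genes tested in neutrophils 10.5% rose and 9.32% fell. Of 15 hydrolases tested 4 rose and 1 fell, led by Ppt1 at 1.65, Tpp1 at 1.35 and Man2b1 at -1.25. Of 10 sorting genes 3 rose, Lgmn at 1.61, Psap at 1.24 and Lamp1 at 1.09, and of 2 other cathepsins Ctsa rose at 0.90.

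In alveolar type 2 cells 1 of 7 members tested passed, beside 1.45% of the 6465 genes tested that were called, and it was the 1 call in which BLM-treated rats were lower. Ctsc stood at 555, 561 and 712 CPM in control rats and at 341 and 309 CPM in BLM-treated replicates 2 and 3, as replicate 1 had only 7 of these cells. The groups did not overlap, and the log2 fold change was -0.92 ± 0.21 (SE, n = 3 and 2 rats, edgeR adjusted p = 0.0457). The call was lost without control replicate 1 (-0.98, edgeR adjusted p = 0.0871), control replicate 3 (-0.78, adjusted p = 0.135), BLM-treated replicate 2 (-1.03, adjusted p = 0.111) or BLM-treated replicate 3 (-0.88, adjusted p = 0.158), where a lone BLM-treated rat is taken to vary like the others. It was also lost at a clustering resolution of 2.0 (-0.89, edgeR adjusted p = 0.0578), with cathepsins kept in the clustering (-0.90, adjusted p = 0.057) and with the replicate block (-0.98, adjusted p = 0.164). Ctsh, the surfactant-processing member, stood at 1762, 1683 and 2217 against 2080 and 1701 CPM, with overlap and a log2 fold change of -0.01 ± 0.19 (SE, edgeR adjusted p = 0.997).

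Fibroblasts could be tested in 2 control rats, with 15 and 29 cells, and 3 BLM-treated rats. By edgeR 0 of 8 members passed, beside 1.22% of the 7525 genes tested. At an unadjusted p under 0.05 there were 3, and DESeq2 called 2, both without a share of all genes. Ctsk stood at 75.3 and 166 CPM in control and at 371, 338 and 369 CPM in BLM-treated rats, without overlap, a log2 fold change of 1.71 ± 0.37 (SE, edgeR adjusted p = 0.0531). Ctsl stood at 653 and 648 CPM in control and at 1373, 1341 and 1151 CPM in BLM-treated rats, without overlap, a log2 fold change of 1.22 ± 0.27 (SE, edgeR adjusted p = 0.0578). Ctss had 0 of 100019 UMIs in control fibroblasts, which allows up to 29.99 CPM over the group, and 70.9, 85.1 and 12 CPM in BLM-treated rats, a summed level at least 2.34-fold higher, and it did not pass. In the same sums 0 of 9 macrophage genes tested passed by edgeR, with 1 at an unadjusted p under 0.05 and a median log2 fold change of 1.25, and the summed level of the 13 ranged from 728 to 814 CPM in control and from 538 to 1489 CPM in BLM-treated rats. Spp1, Cd68 and C1qa were at 0 in the control rats and Marco in both groups. Their part in the result was not tested. The median over the members was 1.30, or 1.23 with Ctss at its bound, against 0.20 over all genes tested. After thinning to 500 UMIs, Ctsk was found in 10.5% ± 5.4 (SD, n = 2) of control and 15.5% ± 3.9 (SD, n = 3) of BLM-treated fibroblasts, and before it in 18.7% and 58.7%, with 1 control and 28 BLM-treated cells left out of the thinned shares, at median depths of 2048 and 3521 UMIs per cell.

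In the 12 classes without a called member, fibroblasts included, edgeR called 0 of 76 tests, with 17 at an unadjusted p under 0.05. DESeq2 called 2. A share of all genes is given for the edgeR calls only, not for the unadjusted p or DESeq2. The share of all tested genes called was 6.86% in endothelial cells, 3.26% in smooth muscle or pericyte cells, 2.09% in mesothelial cells, 1.04% in non-classical monocytes, 0.854% in T cells, 0.490% in B cells, 0.463% in plasmacytoid dendritic cells, 0.396% in classical monocytes, 0.112% in club or secretory cells, 0.0476% in dendritic cells and 0.0415% in NK cells. Ctsk of mesothelial cells, the highest class of the control lung, stood at 96.9, 211 and 146 against 193, 84.4 and 179 CPM, with a log2 fold change of 0.04 ± 0.38 (SE, edgeR adjusted p = 0.985). Ctsl of plasmacytoid dendritic cells stood at 1694, 1464 and 1512 against 1408, 1033 and 1081 CPM, without overlap, at -0.38 ± 0.19 (SE, edgeR adjusted p = 0.575).

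In endothelial cells Ctsb had a log2 fold change of 0.35 and Ctsh of 0.26, while Ctsl had -0.45, Ctss -0.43, Ctsd -0.90, Ctsc -0.91 and Ctsz -1.59, and 0 passed. Of the macrophage genes all 8 tested had log2 fold changes below 0 in these sums, with a median of -1.11, 0 passed by edgeR and 3 were at an unadjusted p under 0.05. The summed level of the 13 ranged from 1517 to 12601 CPM in control and from 828 to 3799 CPM in BLM-treated rats, with Spp1, C1qa, C1qb and C1qc at 0 in the control rats and Marco in both groups. Their part in the result was not tested. The change of Ctsl and of Ctsc differed between alveolar macrophages and endothelial cells, by -1.47 (edgeR adjusted p = 0.00913) and -1.34 (edgeR adjusted p = 0.0317) as endothelial cells minus alveolar macrophages, beside 2.81% of 9416 genes tested. DESeq2 called neither, at -1.50 (adjusted p = 0.258) and -1.46 (adjusted p = 0.166). Without control replicate 2 these were -0.97 and -0.82 (edgeR adjusted p = 0.0703 and 0.299), and for Ctsc the call was also lost without control replicate 1, at -1.40, or BLM-treated replicate 2, at -1.22 (edgeR adjusted p = 0.075 and 0.0519). Of the lists, 3 of 4 MHC class II genes tested rose in endothelial cells, beside 4.10% of the 6194 genes tested that rose. RT1.Ba rose by 7.21, RT1.Db1 by 2.89 and Cd74 by 2.16 on the log2 scale, the cystatin Cst3 by 2.81, and Sort1 fell by 0.89. Control sums held 26373, 68128 and 243390 UMIs, and whether these genes pass the filter on the control rats alone was not checked. Between alveolar macrophages and fibroblasts, 0 members differed by edgeR over the 5 rats that had both, beside 2.56% of 10619 genes. At an unadjusted p under 0.05 there were 2, without a share of all genes, and DESeq2 called 0. In non-classical monocytes 4 of 5 MHC class II genes tested fell, beside 0.458% of all genes tested that fell. Cst7 fell there too, by 1.06 on the log2 scale. In smooth muscle or pericyte cells Cst3 rose by 1.74, beside 1.40% of all genes tested that rose.

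Over all cells, 11.1% of the 13346 genes tested rose and 6.33% fell. Of 5 cystatins tested 3 rose, Cst6 by 3.58, Cst3 by 1.43 and Cst7 by 0.65 on the log2 scale. Of 22 hydrolases Arsb alone rose, by 0.85, and 0 fell. Of the 14 genes listed for processing and sorting, Sort1 and the transcription factor Mitf fell, by 0.60 and 0.57. For MHC class II genes 0 of 7 passed, for other cathepsins 0 of 4, and of 12 macrophage genes tested 4 rose and 2 fell.

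The genes whose levels ran most alike with each member were found over 109 sums of 23 classes in 6 rats, as Pearson's r of log2(CPM + 10). The sums of a rat share its library, so this is a description. Ctsb ran with Lamp2, a lysosomal membrane protein (0.83), Fth1, a ferritin chain (0.82), and Cstb, a cysteine protease inhibitor (0.82). Ctsd ran with Gpnmb, a glycoprotein of lysosome-rich cells (0.88), Agap1 (0.85) and Cela1 (0.85). Ctsk ran with Slc1a3, a glutamate transporter (0.76), Vnn1 (0.71) and Lhfpl2 (0.70). Ctss and Ctsz both ran closest with Cybb, the catalytic subunit of the phagocyte oxidase (0.91 and 0.90), and with each other (0.86), the highest r between members. Ctsl ran with Spsb1, Procr and Cd99 (0.67 each), Ctsc with Npc2 (0.62), Lyz2 (0.56) and Acsl4 (0.55), and Ctsh with Ogfrl1 (0.65), LOC100360218 (0.65) and Sowahc (0.64). Ctsl and Ctsc were the pair of members with the lowest r, -0.20.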

How the data were processed

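Lungs of 3 control and 3 BLM-treated rats were profiled as single cells on the BD Rhapsody system. The authors deposited raw UMI counts per cell and gene. No source used here names the aligner, counter or cell filter. Build mm9, a mouse build, is the one named for these rat reads by the processing notes of the submitters. The deposited gene names include rat ones, such as RT1.Ba and RGD1559482, so the notes and the names disagree. Header names stand 1 field to the left of their values and were moved. Cell names end in N or F, read as control and BLM-treated because the cell totals of the 2 endings equal those the study gives. All 25547 cells were kept. The members and gene lists were chosen with earlier results of these data known.

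Clustering used scanpy 1.11.5 (2000 variable genes without cathepsins, 30 components, 15 neighbours, Leiden resolution 1.0). Clusters were named from marker lists, and these rebuilt names may differ from the study's. The doublet caller marked 0.388% of cells, too few to have worked, so doublets were kept. 1 cluster and 2 listed genes are not reported here. UMIs were summed per rat and class, rats with fewer than 10 cells of a class left out, and tested with edgeR 4.0.16 (filterByExpr, TMM, quasi-likelihood, Benjamini-Hochberg at 0.05). The interaction fits had the rat as a block. The test was checked on simulated data. Alternatives were DESeq2 1.42.0, another scaling, no filter, the replicate number as a block, other cells, resolutions and clusters, and each rat left out. Named genes were all members, up to 3 called genes of largest change in each of 6 lists and, for each member, the 3 genes most alike. Separate cages or litters are not given, so p-values measure the spread between these rats only.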

Additional observations from a re-analysis of the deposited data

Results flagged for a closer look

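The response of 7 gene and class pairs differed between 2 classes of the same lungs, tested as the interaction of class and group with the rat as a block in edgeR (3 rats per group). Between interstitial and alveolar macrophages the difference in log2 fold change was 5.02 for Ctsk, 4.42 for Ctsd, 1.56 for Ctsb, 0.95 for Ctsz and 0.69 for Ctsc, each larger in interstitial macrophages. Both macrophage classes held clusters in different proportions in the 2 groups, and the changes within single clusters are given above. Cluster proportion and level within a cell cannot be told apart in these differences. The value of Ctsk rests on 3 control UMIs in interstitial macrophages. It was 4.33 without control replicate 1 and 6.07 without control replicate 3. For Ctsc the call was lost without control replicate 1, BLM-treated replicate 1 or BLM-treated replicate 2 (0.52, 0.70 and 0.67) and with DESeq2 (0.62). Between endothelial cells and alveolar macrophages the difference was -1.47 for Ctsl and -1.34 for Ctsc, both more positive in alveolar macrophages, and without control replicate 2 both calls were lost (-0.97 and -0.82), as they were with DESeq2 (-1.50 and -1.46).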

How the results depend on the processing

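Of the 22 called changes, 8 passed under every alternative in which they were tested. These were Ctsk over all cells and in alveolar and interstitial macrophages. They were also Ctsl over all cells, in proliferating cells and in neutrophils, and Ctsd and Ctss in neutrophils. Ctsk was not tested in the C1qc-led cluster alone, where it counted 1 UMI in control and 5 UMIs in BLM-treated rats. Ctsk in interstitial macrophages and Ctsl in proliferating cells and neutrophils passed the filter on low counts through the BLM-treated rats only. Their passing under the alternatives is therefore not read as support. None of the 22 reversed. The causes of the changes below were not tested. The counts below stand without the share of all genes called under the same alternative. They show only how the count of members moved. The count of called members became 1 in B, T, endothelial and smooth muscle or pericyte cells, 2 in mesothelial cells and 4 in fibroblasts without the filter on low counts. DESeq2 gave 2 in fibroblasts, 4 in proliferating cells and 0 for the difference between alveolar macrophages and endothelial cells. At resolution 2.0 it was 0 in alveolar type 2 cells and 2 in proliferating cells, with cathepsins kept in the clustering 0 in alveolar type 2 cells, with the marked doublets removed 1 in fibroblasts and in smooth muscle or pericyte cells, and with all rats that had a cell 1 in both of the last. In the C1qc-led cluster alone it was 0. The alternatives with single clusters, or with all rats that had a cell, were chosen after seeing the data.

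The labels of samples with the same replicate number give no other link between them, and whether they shared a batch is not known. Their deviations from the group means over all cells correlated at 0.18, -0.13 and -0.15. With the replicate block the count was 0 in alveolar type 2 cells and 1 in fibroblasts.

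Leaving out each rat gave 0 to 1 called members in T, alveolar type 2 and mesothelial cells, 1 to 3 in alveolar macrophages, 0 to 2 in endothelial cells, 0 to 3 in fibroblasts, 4 to 6 in proliferating cells and 0 to 2 for the difference between alveolar macrophages and endothelial cells.

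Values that changed sign were never called. Ctsc over all cells was -0.0015 with cells of at least 500 UMIs. In the Fabp4-led cluster Ctsb was -0.17 and Ctsd -0.11. In interstitial macrophages Ctsh was 0.12 without the filter and 0.16 in the C1qc-led cluster, where Ctsz was -0.14. Without each rat the ranges over all cells were -0.10 to 0.10 for Ctsc, -0.41 to 0.12 for Ctsd and -0.0034 to 0.48 for Ctss, in alveolar macrophages -0.050 to 0.21 for Ctsd and in interstitial macrophages -0.26 to 0.10 for Ctsh.

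Depth was limiting in control fibroblasts (15 and 29 cells in 2 rats). The share of BLM-treated interstitial macrophages with a Ctsk UMI was 29.4% at 1000 UMIs per cell and 39.1% without thinning.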
